A study of Mus musculus with 3 samples.

Results

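The regions described here belong to clustered mouse gene families whose members arose by tandem duplication: the alpha-defensins (Defa), the beta-defensins (Defb), the Speer genes, the major urinary proteins (Mup), the small proline-rich proteins (Sprr), the late cornified envelope proteins (Lce), the Skint genes and the PRAME-like genes (Pramef and Pramel). They were picked by gene symbol alone, from every region that the deposited tables list as different between the 2 libraries. The families themselves were chosen with earlier results of these data known. Each region was counted once for each symbol. This gave 97 pairs of a region and a symbol, out of 20227 in all, from 91 distinct regions of 19817 and 50 symbols of 9293. Of the 9 symbol prefixes 8 had a listed region, and Lce had none.

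5-hydroxymethylcytosine (5hmC) was mapped by immunoprecipitation and sequencing (hMeDIP-seq) in genomic DNA of mouse embryonic stem cells (mESCs) of the Sv129 line. Cultures received medium without folate (0 mg/L, FA0) or with folate (4 mg/L, FA4), and the labels give serum-supplemented DMEM as the growth medium of all samples. With 1 immunoprecipitated library for each condition, nothing below has been checked in replicates, and the read tests set 1 library against another rather than testing the conditions. The FA0 input, the remaining one of the 3 samples, was not used here. The tables hold DNA signal and no expression, so the labelled cell type could not be set against its marker genes.

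5hmC is made by TET enzymes from methylated cytosine, mostly at CG dinucleotides, and is commonest in gene bodies and regulatory sequence of active genes in mESCs. Most of the families here are known for roles in other tissues. Alpha-defensins are antimicrobial peptides of Paneth cells in the small intestine, and beta-defensins are antimicrobial peptides of epithelia and of the male reproductive tract. Speer genes code for glutamate-rich proteins of the testis. Mup proteins are lipocalins made mainly in the liver that carry pheromones in urine. Sprr and Lce proteins are cross-linked into the cornified envelope of the skin. Skint proteins are relatives of butyrophilins, and Skint1 selects the gamma-delta T cells of the epidermis. PRAME-like proteins have leucine-rich repeats and are known from the germ line and early embryo.

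The RefSeq promoter windows (GRCm38.p6, which is mm10) show how little CG these genes carry at their starts, and the Sprr2a windows show how alike some copies are. Each window runs from 250 bases before to 50 bases after the start, printed 5′ to 3′ on the gene's strand, with CG in capitals. The first pair are the only windows that overlap a listed region of their own gene. Defb10 lies at chr8:21858651-21858950 on the plus strand and contains 0 CG, and Mup21 lies at chr4:62150792-62151091 on the minus strand and contains 2.
Defb10: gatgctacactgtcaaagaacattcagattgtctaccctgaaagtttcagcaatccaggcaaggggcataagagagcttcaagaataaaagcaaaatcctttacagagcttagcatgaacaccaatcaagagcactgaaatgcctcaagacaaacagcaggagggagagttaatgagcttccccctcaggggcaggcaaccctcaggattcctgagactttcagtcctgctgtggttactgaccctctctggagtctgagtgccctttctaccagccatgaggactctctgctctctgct
Mup21: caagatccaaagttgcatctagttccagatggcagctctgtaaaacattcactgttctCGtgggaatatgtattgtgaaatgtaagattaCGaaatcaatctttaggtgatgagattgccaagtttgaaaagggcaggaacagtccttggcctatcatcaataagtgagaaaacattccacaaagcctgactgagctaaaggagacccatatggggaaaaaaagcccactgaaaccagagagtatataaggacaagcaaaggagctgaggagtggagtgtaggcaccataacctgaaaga
The Sprr2a genes are shown because their copies share regions in the tables. The windows of Sprr2a1 (chr3:92215585-92215884) and Sprr2a2 (chr3:92250397-92250696) are identical over all 300 bases, so 1 of them is printed. The window of Sprr2a3 (chr3:92285054-92285353) is offset by 28 bases and holds the same letters at all 272 positions that they share.
Sprr2a1: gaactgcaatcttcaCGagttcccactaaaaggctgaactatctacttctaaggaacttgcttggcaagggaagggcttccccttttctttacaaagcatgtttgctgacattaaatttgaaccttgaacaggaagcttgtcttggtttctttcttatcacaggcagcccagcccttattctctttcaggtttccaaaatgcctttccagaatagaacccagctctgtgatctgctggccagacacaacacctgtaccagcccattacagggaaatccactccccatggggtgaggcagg
Sprr2a3: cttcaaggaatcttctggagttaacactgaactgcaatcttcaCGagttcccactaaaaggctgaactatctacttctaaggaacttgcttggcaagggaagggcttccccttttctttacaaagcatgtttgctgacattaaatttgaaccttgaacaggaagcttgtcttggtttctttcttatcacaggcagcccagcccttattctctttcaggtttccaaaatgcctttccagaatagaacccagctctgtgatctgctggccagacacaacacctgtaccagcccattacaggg

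Of the 50 symbols 34 had a window in the promoter table, with 35 windows in all. They held a median of 1 CG (0 to 4), against a median of 7 (0 to 67) over 32851 windows of all genes. A CG was present in 85.7% of the member windows and in 94.6% of all windows, and 38% of all windows held 4 CG or fewer. The low CG count was shared by other clustered families: the median was 1 in the olfactory receptor genes (Olfr) and 1 in the vomeronasal receptor genes (Vmn1r and Vmn2r). The plot of CG counts shows all member windows at the low end of the range of all promoters.

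**Figure D1:**
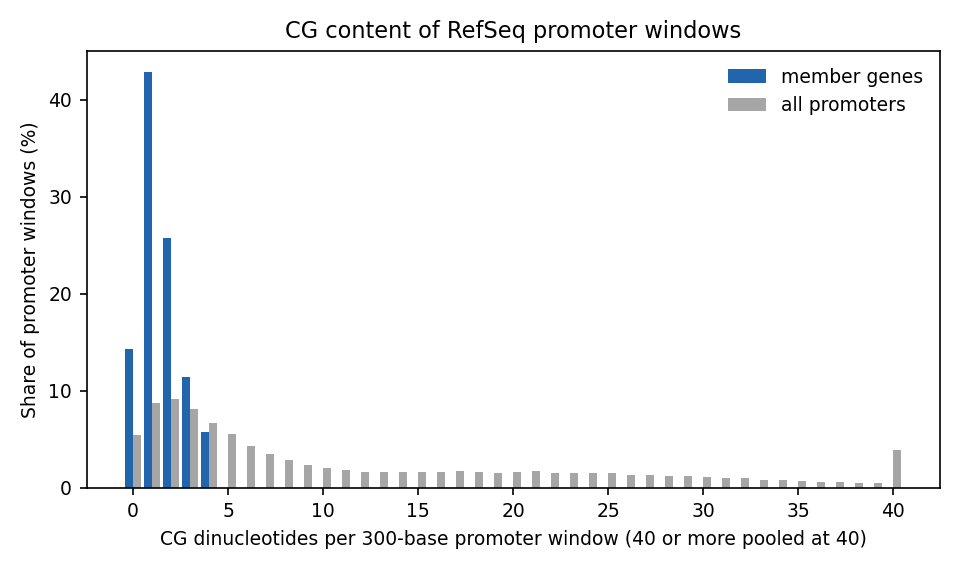
Share of promoter windows (%, y axis) by the number of CG dinucleotides in the 300-base window (x axis, 40 or more pooled at 40), for the 35 windows of member genes (blue) and all 32851 windows (grey). The member windows stop at 4 CG, while those of all genes reach 67.

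The first comparison asked in which library the families had more 5hmC signal. Of the 97 pairs 13 were higher in FA0 and 84 higher in FA4, so 13.4% were higher in FA0 (7.33% to 21.8%, 95% Clopper-Pearson). Over all listed pairs 39% were higher in FA0. The share was low as well in other clustered families, at 16.9% for Olfr (34 of 201, 12% to 22.8%) and 10.9% for Vmn1r and Vmn2r (15 of 137, 6.26% to 17.4%). With unscaled reads the members' share was 3.45% (3 higher in FA0 and 84 in FA4 among those that still passed), against 18.4% of all listed pairs. Intervals in this text cover counting error only and leave out variation between cultures. They treat pairs, or reads, as independent. Pairs that share a region are counted separately here, and the reads may include PCR copies of 1 molecule, so the intervals may be too narrow.

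**Figure D2:**
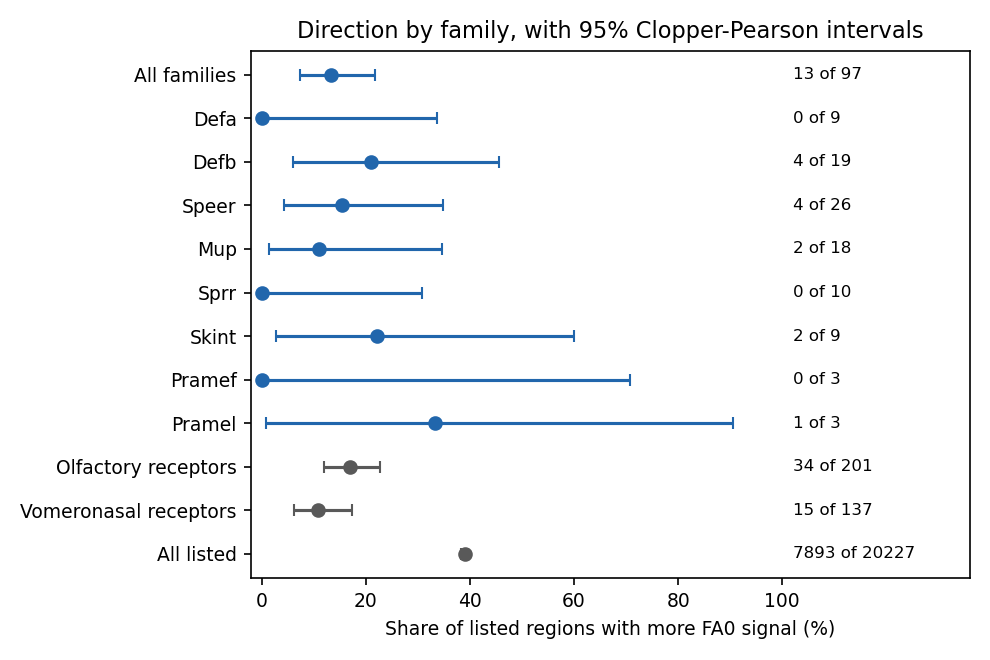
Share of listed regions with more FA0 signal (%, x axis) for each family (blue) and for olfactory receptors, vomeronasal receptors and all listed pairs (grey), with 95% Clopper-Pearson intervals as bars and counts at the right. Defa, Sprr and Pramef had 0 regions higher in FA0, and the intervals of the small families are wide.

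Most of these regions rested on few reads. Reads were recovered from the deposited normalized counts, and equal scaled signal in both libraries corresponds to 1.33 FA4 reads for each FA0 read. Regions higher in FA0 held 10 to 20 FA0 reads (median 13) and 0 to 4 FA4 reads. Regions higher in FA4 held 0 to 10 FA0 reads and 13 to 63 FA4 reads (median 16), and 52 of the 78 distinct ones (66.7%) held 0 FA0 reads. Over all listed FA4-higher regions that last share was 81.1%. Regions entered the tables by thresholds on p and fold, so their ratios tend to be too large and are not corrected for this selection.

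**Figure D3:**
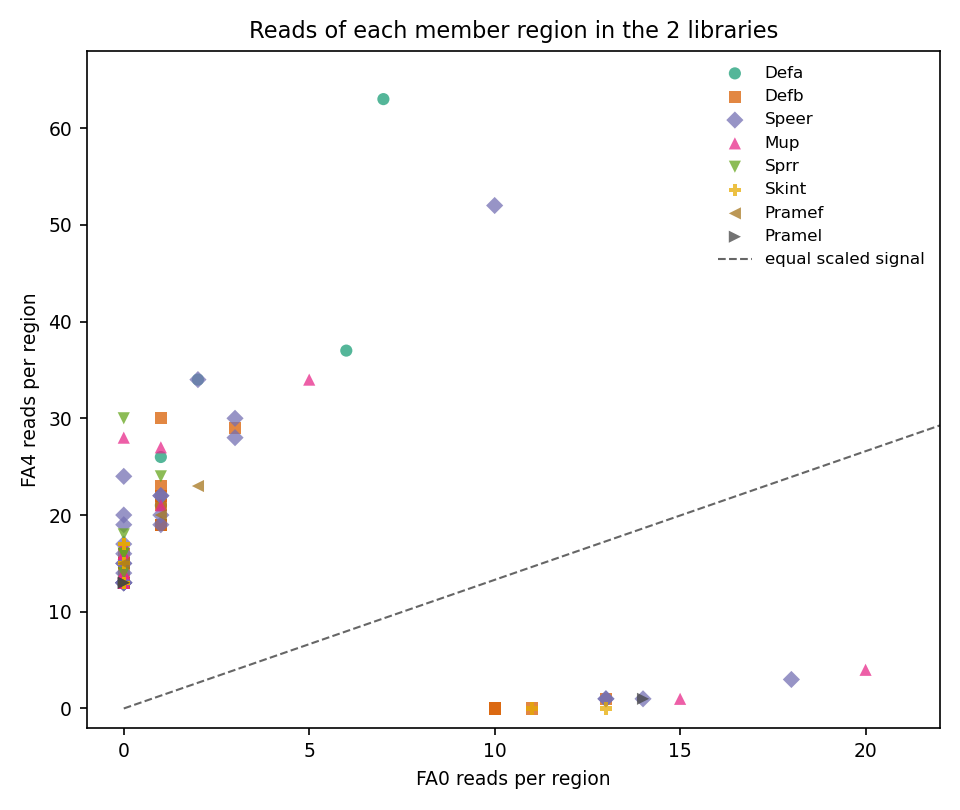
Reads per member region in the FA0 library (x axis) and the FA4 library (y axis), with family shown by colour and marker and with equal scaled signal as a dashed line. The 2 groups of points lie apart because every listed region passed the authors' thresholds, and FA4-higher regions reach 63 FA4 reads while FA0-higher ones stop at 20 FA0 reads.

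An exact two-sided binomial test on the reads, at 1e-04, was passed by 8 of the 13 FA0-higher pairs (61.5%), against 74.7% of all listed FA0-higher pairs. It was passed by 29 of the 84 FA4-higher pairs (34.5%), against 26.2% of all listed FA4-higher pairs. The FA4-higher pairs that passed numbered 10 in Speer, 5 in Sprr, 4 each in Defa, Defb and Mup, and 2 in Skint. The FA0-higher ones numbered 2 each in Speer, Mup and Skint and 1 each in Defb and Pramel. These calls moved with the scaling: with unscaled reads 0 FA0-higher and 53 FA4-higher pairs passed, and 13 FA0-higher and 9 FA4-higher pairs did so after FA0 was scaled up by 25%. Every listed region had already passed a G-test of the same counts at 1e-04. Exact p-values here and below are therefore not corrected for this selection and are no independent evidence of a difference.

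By the position class given in the tables, members lay upstream of genes in 26.8% of pairs, against 13.7% of all listed pairs, and in introns in 14.4%, against 30%. Intergenic regions made up 46.4% of pairs, against 48.9% of all listed pairs. In every class most member pairs were higher in FA4, including the promoters, where 1 was higher in FA0 and 9 in FA4. Over all listed promoter pairs 61.6% were higher in FA0. Of the 9 FA4-higher promoter pairs 5 belonged to Sprr, and these came from 3 distinct regions. The 2 exon pairs were a single region assigned to Sprr2a1 and Sprr2a2. Other clustered families also had more upstream and fewer intronic pairs than all listed pairs. Upstream regions made up 34.8% of Olfr pairs and 22.6% of Vmn1r and Vmn2r pairs, and introns 0.498% and 4.38%. Promoter pairs were 6 higher in FA0 and 18 in FA4 for Olfr, and 0 and 7 for Vmn1r and Vmn2r.

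The alpha-defensins had 8 regions, all higher in FA4, assigned to Defa21, Defa23, Defa-rs7, Defa6 and the pseudogenes Defa-ps12 and Defa-ps13. The largest signal of any member lay before Defa21, in an intergenic region at chr8:20990201-20992100 whose centre is at -34394 bp relative to the start site. It held 7 FA0 reads and 63 FA4 reads, a ratio of FA0 over FA4 of 0.148 (0.0572 to 0.323, exact p = 2.98e-09). The next regions along, within a few kilobases, held 6 FA0 and 37 FA4 reads (ratio 0.216, 0.0746 to 0.517) and 1 FA0 and 26 FA4 reads (ratio 0.0513, 0.00125 to 0.312). All 3 were low in FA0 and all 3 passed the exact test. Near Defa-ps13, an intergenic region held 2 FA0 reads and 34 FA4 reads, a ratio of 0.0784 (0.00913 to 0.306).

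1 upstream region of 0 FA0 and 13 FA4 reads was assigned to both Defa23 and Defa-rs7. The RefSeq promoter windows of these 2 genes are 100% identical, and the tables place Defa-rs7 at the start of Defa23, 137 kb from its place in the gene table. A region of 1 FA0 and 21 FA4 reads was likewise shared by Defa-ps13 and the beta-defensin gene Defb3, whose loci adjoin. Reads that align equally well to several copies cannot be assigned to 1 of them, and no source used here gives the authors' handling of such reads.

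The alpha-defensin regions on chromosome 8 spanned 2538 kb (chr8:19205161-21742960). That span held 153 listed regions of any gene, 60.3 per Mb, against 13.9 per Mb over chromosome 8. Spans here and below run from the first to the last member region, so densities of closely spaced regions come out high by construction. Besides family members the alpha-defensin span held 141 regions, of which 4 had more FA0 signal and 137 more FA4 signal. Most of these were assigned to predicted or unnamed genes, with 73 at Gm21119, 30 at 6820431F20Rik, 19 at 2610005L07Rik and 14 at Gm15319. On the rest of chromosome 8, 35.1% of listed regions were higher in FA0. All 141 lay between 417 and 1630 kb from the first member region, in a stretch with no alpha-defensin region between members at 117 and 1786 kb. They fall in the span only because regions up to 2 Mb apart were joined. With a gap of 1 Mb this stretch drops out, and the regions of other genes in all family clusters number 16 in place of 171.

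The beta-defensins had 19 regions of mixed direction, with 4 higher in FA0 and 15 higher in FA4. On chromosome 8 they formed 2 clusters. The first (chr8:18964781-19597980) held 10 regions of Defb40, Defb37, Defb12, Defb3 and Defb7, all higher in FA4. Defb7 had 4 of them, with 1, 0, 0 and 1 FA0 reads and 22, 14, 13 and 23 FA4 reads in order along the chromosome.

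The second beta-defensin cluster spanned 77.8 kb (chr8:21781241-21859080) and held 3 regions of each direction, interspersed along it. None of its FA0-higher regions passed the exact test at 1e-04, whereas the FA4-higher ones of Defb1 and Defb50 did. Defb1, the beta-defensin of many epithelia, had an intronic region with 10 FA0 reads and 0 FA4 reads, at least 4.44-fold higher in FA0 (exact p = 0.000209). A second Defb1 region, 14.7 kb on and intergenic, held 1 FA0 read and 30 FA4 reads, a ratio of 0.0444 (0.00109 to 0.267, exact p = 1.14e-06). Next came an intergenic Defb50 region with 3 FA0 reads and 29 FA4 reads, a ratio of 0.138 (0.0269 to 0.445). "At least" means here and below that 0 reads were replaced by a floor of 3 reads, so the value is no confidence limit and takes the larger count as exact.

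Defb2 had upstream regions of opposite direction only 2.98 kb apart. The one farther from the start held 13 FA0 reads and 1 FA4 read, a ratio of 17.3 (2.6 to 737, exact p = 0.000139). The nearer one held 0 FA0 reads and 15 FA4 reads, at least 3.75-fold lower in FA0 (exact p = 0.00029). The cluster ended at Defb10, whose promoter region (chr8:21858601-21859080) covered the whole window printed above and held 10 FA0 reads and 0 FA4 reads, at least 4.44-fold higher in FA0. It was the single member promoter higher in FA0 and did not pass the exact test at 1e-04 (p = 0.000209).

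The remaining beta-defensin regions lay on chromosome 1. The pseudogene Defb44-ps had an intronic region with 11 FA0 reads and 0 FA4 reads (at least 4.89-fold higher in FA0, exact p = 8.96e-05). Defb41 had 2 intergenic regions, each with 0 FA0 reads and 13 FA4 reads. Their centres were far from its start site, at -98402 and -367762 bp, and each was also assigned to another symbol. The gene table lists 11 beta-defensin genes on chromosome 2 and 5 on chromosome 14, and 0 of these had a listed region.

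**Figure D4:**
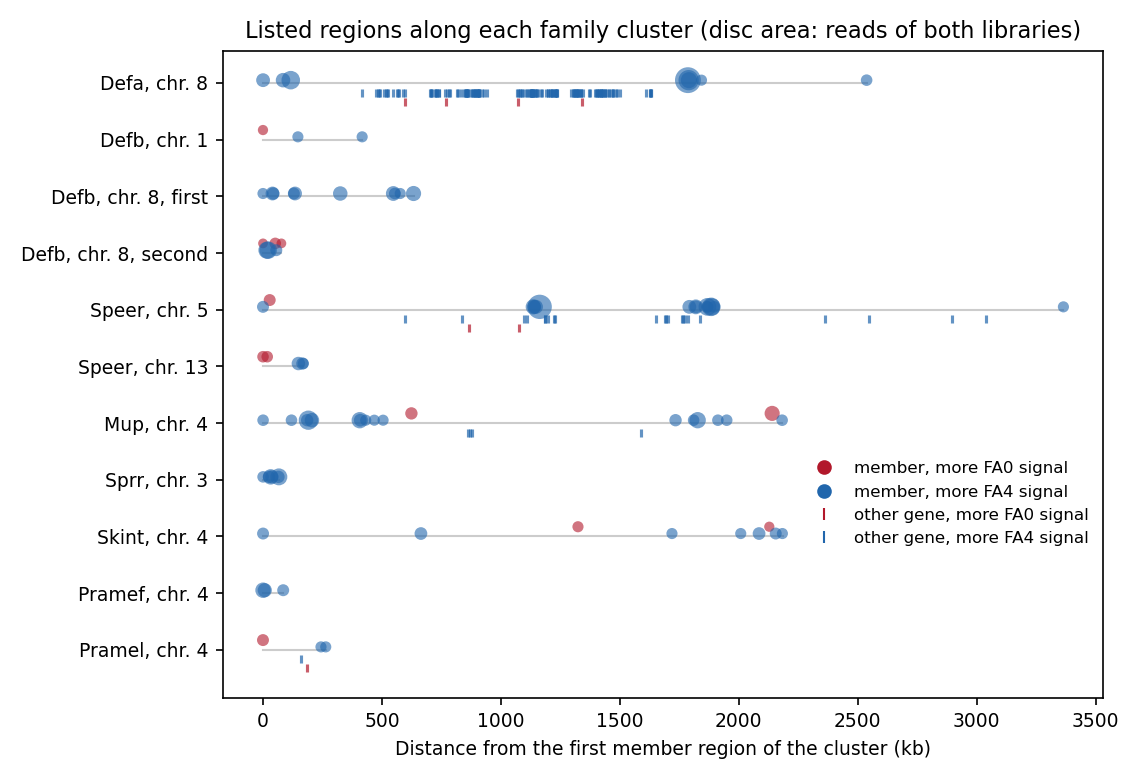
Listed regions along each cluster of 3 or more member regions (rows), by distance from the first member region (kb, x axis), with the direction in colour (red, more FA0 signal; blue, more FA4 signal). Discs are member regions with an area that follows the reads of both libraries, and ticks are regions of other genes, with members of another of these families left out. The second Defb cluster holds 3 regions of each direction in 77.8 kb, while the regions of other genes in the Defa span lie in a stretch without Defa regions, most of them FA4-higher.

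The Speer family had the most regions, 26, with 4 higher in FA0 and 22 higher in FA4, assigned to Speer1, Speer2, Speer3, Speer4a, Speer4d, Speer4f1 and the loci Speer4cos, Speer6-ps1, Speer8-ps1 and Speer9-ps1. Its main cluster on chromosome 5 (chr5:13809941-17174440) held 16 regions, 1 higher in FA0 and 15 in FA4. The other 24 listed regions in that span were 2 higher in FA0 and 22 in FA4, whereas 50% of listed regions on the rest of chromosome 5 were higher in FA0. This span too was joined across gaps above 1 Mb. No member lay between 28.5 and 1136 kb, or between 1896 and 3364 kb, from the first. The 2 regions of other genes higher in FA0, at 868 and 1078 kb, lay in the first of these gaps.

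Speer4cos had 6 regions along its upstream sequence, promoter and introns. They held 0, 3, 0, 2, 3 and 0 FA0 reads and 15, 30, 13, 34, 28 and 14 FA4 reads, in order along the chromosome. The first of them was also assigned to another symbol. All 6 were low in FA0. The largest, in an intron at chr5:15693161-15693820, had a ratio of 0.0784 (0.00913 to 0.306, exact p = 1.4e-06), and the promoter region, centred 639 bp before the start, was at least 3.25-fold lower in FA0.

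Speer8-ps1 had 4 regions, all lower in FA0. Its promoter region (chr5:14945521-14945840) held 0 FA0 reads and 24 FA4 reads, at least 6-fold lower in FA0 (exact p = 2.24e-06). The 3 intronic regions held 0, 1 and 10 FA0 reads and 20, 20 and 52 FA4 reads. The last of these had the second-highest FA4 count of all members and a ratio of 0.256 (0.116 to 0.51, exact p = 1.39e-05).

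3 Speer loci had regions of both directions. Speer3 had 14 FA0 reads and 1 FA4 read in an intergenic region (ratio 18.7, 2.84 to 789, exact p = 6.35e-05), and 0 FA0 and 15 FA4 reads in another 27.6 kb away. Speer9-ps1, near the centromeric end of chromosome 7, had 18 FA0 and 3 FA4 reads in an intron (ratio 8, 2.34 to 42.4) and 0 FA0 and 13 FA4 reads 37.7 kb away. Speer6-ps1, near the centromeric end of chromosome 13, had 5 regions split by position. The 2 on the start-site side each held 13 FA0 reads and 1 FA4 read, and the other 3, at least 130 kb further on, held 0 FA0 reads each and 19, 16 and 13 FA4 reads.

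The Mup family had 18 regions of 11 genes in a single cluster on chromosome 4 (chr4:59968761-62151620), 2 higher in FA0 and 16 higher in FA4. With a gap of 1 Mb this cluster would split, as no member lay between 624 and 1734 kb from the first. On the rest of chromosome 4, 42.6% of listed regions were higher in FA0. Among Mup9, Mup15, Mup19 and Mup5, which had several regions each, all regions were lower in FA0. Mup1, Mup4, Mup7, Mup18 and Mup21 had 1 region each, also lower in FA0. The Mup19 regions were each assigned to another symbol as well.

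Mup9 had the most regions of any Mup gene, 4, with 0 FA0 reads in each and 28, 17, 13 and 13 FA4 reads in order along the chromosome. The first of them, intergenic, was at least 7-fold lower in FA0 (exact p = 1.92e-07). Mup15 had the highest FA4 count, with 5 FA0 reads and 34 FA4 reads in an upstream region (ratio 0.196, 0.0599 to 0.504). The tables place Mup15 1300 kb from the start in the promoter table, so these regions belong to the locus the tables name and not surely to that gene.

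The regions higher in FA0 were at Mup10 and Mup3. Mup10 had 15 FA0 reads and 1 FA4 read in an upstream region (ratio 20, 3.08 to 842, exact p = 2.89e-05). Mup3 had 20 FA0 reads and 4 FA4 reads in an intergenic region (ratio 6.67, 2.23 to 26.8, exact p = 8.53e-05), the highest FA0 count of all members. Only 40.6 kb further on, the promoter region of Mup21 (chr4:62150201-62151620), which covers the window printed above, held 0 FA0 reads and 14 FA4 reads, at least 3.5-fold lower in FA0 (exact p = 0.000534).

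The Sprr regions were the most compact and the closest to gene starts. All 6 lay in 68.1 kb (chr3:92216761-92284860), 88.1 per Mb against 6.67 per Mb over chromosome 3, all were higher in FA4, and all belonged to the Sprr2a genes. That span was drawn around the regions themselves, so the density is no test of an excess over the chromosome. Over the 10 Sprr pairs the region centres lay a median of 2.41 kb from the start site, against 62.4 kb over all listed FA4-higher pairs. Other clustered families also lay nearer than that, with medians of 9.25 kb for Olfr and 18.9 kb for Vmn1r and Vmn2r. The promoter region of Sprr2a3 (chr3:92282621-92284860) held 0 FA0 reads and 30 FA4 reads, at least 7.5-fold lower in FA0 (exact p = 5.86e-08), and an upstream region beside it held 0 FA0 and 16 FA4 reads.

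The other 4 Sprr regions were assigned to Sprr2a1 and to Sprr2a2 alike, because the tables place both accessions at both copies. The promoter-class regions held 0 FA0 and 14 FA4 reads and 1 FA0 and 24 FA4 reads (the second with a ratio of 0.0556, 0.00135 to 0.341). The exon region held 0 FA0 reads and 18 FA4 reads, and the upstream region 0 FA0 and 16 FA4 reads. By position, the promoter-class region at chr3:92216761-92218140 is placed from the start of Sprr2a1 in the gene table, and the other 3 from the start of Sprr2a2. The promoter windows printed above overlap none of these regions.

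The epidermal differentiation complex is a cluster of skin barrier genes on chromosome 3. The neighbours of the Sprr genes in it were counted from the gene table. Over all protein-coding genes 35.8% had a listed region, by a match that differed from the one for the family counts. None of the 21 annotated Lce genes had any, and 3 of 17 Sprr genes had one. Of 29 other genes of the complex 6 had 8 regions, of which 2 had more FA0 signal and 6 more FA4 signal. S100a2, a calcium-binding protein gene, had 16 FA0 reads and 1 FA4 read upstream (ratio 21.3, 3.31 to 895) and 0 FA0 and 14 FA4 reads at its promoter. Hrnr, a filaggrin-like protein gene, had 10 FA0 reads and 0 FA4 reads in an exon.

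The Skint regions, also on chromosome 4, were the least dense, with 9 in 2184 kb (chr4:112041001-114224920), 4.12 per Mb against 8.34 per Mb over that chromosome. They were 2 higher in FA0 and 7 higher in FA4, and every one held 0 reads in the lower library. Skint6 had 13 FA0 reads and 0 FA4 reads in an intergenic region (at least 5.78-fold higher in FA0, exact p = 1.65e-05). Skint11 had 4 regions, with 0, 11, 0 and 0 FA0 reads and 17, 0, 15 and 13 FA4 reads in order along the chromosome, so an intronic region higher in FA0 lay between regions lower in FA0, 26 kb from the nearer. Skint10 had 0 FA0 and 17 FA4 reads, Skint1 had 0 FA0 and 15 FA4 reads, and Skint5 had 2 regions of 0 FA0 and 13 FA4 reads each.

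There are 8 other butyrophilin genes in the gene table, of which 4 had 1 region each, 3 higher in FA0 and 1 higher in FA4. Btnl10 had 23 FA0 and 6 FA4 reads, and Btn2a2 had 0 FA0 and 16 FA4 reads. Of 15 lipocalin genes other than Mup 1 had listed regions, Lcn4, with 1 higher in FA0 and 2 in FA4.

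The PRAME-like genes had 6 regions on chromosome 4, 1 higher in FA0 and 5 in FA4. Pramel4 had 14 FA0 reads and 1 FA4 read in an intergenic region (ratio 18.7, 2.84 to 789). Pramel5 had 2 regions of 0 FA0 and 13 FA4 reads each, 1 of them promoter-class. Pramef6 had 2 and 1 FA0 reads and 23 and 20 FA4 reads, and Pramef17 had 0 FA0 and 15 FA4 reads. None of the FA4-higher ones passed the exact test at 1e-04, and the Pramel4 region did (p = 6.35e-05). The gene table also lists PRAME-like genes on chromosomes 2, 5, 12 and X, with 0 listed regions.

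By gene, 38 symbols had regions higher in FA4 alone, 6 had regions higher in FA0 alone and 6 had both. Those with both were Defb1, Defb2, Speer3, Speer6-ps1, Speer9-ps1 and Skint11. A single region was listed for 25 symbols, and 8 symbols had 4 or more. Of 217 annotated genes of these families 49 (22.6%) had a listed region under their own symbol, from 10 of 15 in Speer and 11 of 22 in Mup to 5 of 40 in Defa and 4 of 48 for the PRAME-like genes. These 217 include 21 pseudogenes. Among protein-coding genes alone, matched in 1 way for both groups, 26% of family genes (51 of 196) and 35.8% of all genes (7826 of 21883) had one. The 49 genes above include 7 pseudogenes, so this second match credited regions to more protein-coding genes than the first. The 26% and the 22.6% are therefore not comparable.

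On the 3 chromosomes with the most pairs, the share higher in FA0 was below that of the other listed pairs. It was 12% on chromosome 8 (3 of 25), where 32.7% of the other listed pairs were higher in FA0, 15.2% on chromosome 4 (5 of 33), against 42.9% of the others, and 5.56% on chromosome 5 (1 of 18), against 49% of the others. Without chromosome 8 it was 13.9% (10 of 72), against 39.8% of the others. On the chromosomes with fewer pairs the comparison went either way. The share was above that of the others on chromosomes 1 (1 of 3, 33.3% against 27.5%), 7 (1 of 2, 50% against 46%) and 13 (2 of 5, 40% against 34.3%). It was 0% on chromosomes 3 (0 of 10, against 31.2%) and 16 (0 of 1, against 35.8%).

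Promoter similarity differed between families. The median identity of a member window to its nearest relative in the family was 89.7% over all families, 100% in Defa, 93.4% in Mup and 82.2% in Speer, against 60.3% in Skint and 74.5% in Defb. Over the 79 pairs of members of 1 family the median was 60.2% (36.6% to 100%). Placement of the start site enters these values, because unmatched window ends count as differences. The windows of Sprr2a2 and Sprr2a3 thus had 82.9% identity, although all 272 shared positions were the same. These values describe the promoter windows only, since no genome sequence was used here for the regions themselves.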

How the data were processed

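hMeDIP-seq reads of the FA0 and FA4 immunoprecipitates were processed by the authors with cutadapt 1.9.1, Bowtie2 2.2.4 and mm10, as named in the submitters' processing notes. The region caller is not given in the sources used here. Immunoprecipitation kits and fragment sizes differ between the labels and the study's methods, which was not settled. The authors deposited a table for each direction, with a normalized read count for each library (a signal scaled by 1 factor per library). Steps of 1.15 (FA0) and 0.866 (FA4) gave whole reads for 100% of values (tolerance 0.02, largest distance 0.0127). Columns of fold, p-value and FDR hold the authors' own comparisons and were not used. The 4 columns of averages, equal to the counts in 100% of rows, and the 2 promoter tables, which repeat promoter rows, were not used either. The total depth of the libraries is unknown here. The listed regions held 144823 FA0 reads and 239268 FA4 reads.

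Every listed region passed a G-test of the normalized counts at 1e-04 and a fold of 2 after adding 0.1, as recomputed here. Shares have Clopper-Pearson 95% intervals. Ratios are FA0 over FA4 normalized counts with exact conditional intervals, against a floor of 3 reads where a library had 0. Recovered reads were tested with a two-sided exact binomial test that expects 42.9% of them in FA0, from the authors' scaling. Members and lists were chosen with earlier results of these data known. Clusters joined regions of 1 family up to 2 Mb apart. Named regions were all promoter and exon members, the 2 per family and direction with most reads, and those of symbols with both directions or with 4 or more regions; related genes and the remaining members were named for completeness after their values were seen. Symbols matched the GRCm38.p6 gene table as written (46), by accession (3) or not at all (1, Defa6). Identity of promoter windows was computed after global alignment. Protein identity was not computed.

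The alternatives were 3 other scalings, stricter tests, folds and counts, other counting units, chromosome sets, cluster gaps, symbol matching and unaligned identity. The tests were checked on simulated data with the read totals of 19817 listed regions. Reads were drawn from the binomial model that the test assumes, with no added variation between libraries. The simulation therefore cannot give the rate of false calls in the real data. The exact test called 0% of 50 regions changed 2-fold, 14% of 50 changed 4-fold, 36% of 50 changed 8-fold, 50% of 50 changed 16-fold and 0 of 19617 unchanged regions. Scripts ran under Python 3.11.15 with scipy 1.17.1, numpy 2.4.6, matplotlib 3.10.9 and pandas 2.3.3.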

Additional observations from a re-analysis of the deposited data

How the results depend on the processing

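The share of member regions higher in FA0, 13.4% in the report, was 3.45% with unscaled reads (3 higher in FA0, 84 in FA4), where 18.4% of all listed pairs were higher in FA0. It stayed within its interval under the other settings, between 8.7% with FA4 scaled up by a further 25% and 21.6% among regions that passed the exact test, where 64.6% of all listed pairs were higher in FA0. Runs without chromosome 4 (12.5%), without chromosome 5 (15.2%) and with regions of 1 family symbol alone (15.3%) were chosen after seeing the data. The number of pairs passing the exact test, 37, was 22 with FA0 scaled up by a further 25% (13 higher in FA0, 9 in FA4), 97 with Benjamini-Hochberg adjustment at 0.05 over all listed regions, which every listed region passed, and 9 at 1e-05, all higher in FA4. With unscaled reads it was 53, of which 0 were higher in FA0, and with FA4 scaled up it was 54, of which 1 was. Test calls in both directions thus depended on the authors' scaling. FA4-higher calls numbered 29 with that scaling, 9 with FA0 scaled up, and 53 with unscaled reads or with FA4 scaled up. Within the family clusters 259 regions of any gene were listed, and 103 with a gap of 1 Mb. The median identity of promoter windows, 60.2% after alignment, was 27.3% without it, since windows can be offset as in Sprr2a3. Of 103 family shares under alternatives 95 stayed within their interval and 8 moved. Regions outside the tables were not seen, so a setting could drop regions but never gain one. No paired analysis was possible because each condition had 1 library.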
